A study of Homo sapiens with 12 samples.

Results

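The net effect of MYC overexpression and tipifarnib together was measured as MYC-vector cells in tipifarnib against control-vector cells in DMSO, paired by cell line. The comparison holds 6 of the 12 libraries of the study, 1 for each of 3 cancer cell lines in each group. The members were taken from the sample labels alone. The lines were A549, a lung cancer line, SKOV3, an ovarian cancer line, and MDA-MB-231, a breast cancer line, all described by the submitters as lacking amplification of MYC. The study asked how c-Myc overexpression alters sensitivity to tipifarnib.

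In the MYC plus tipifarnib group, cells carried the lentiviral vector pCDH-puro-cMyc, which expresses full-length human c-Myc, and received tipifarnib for 48 h at 10 µM for A549 and at 20 µM for both other lines. The control group carried the pCDH-CMV vector and received DMSO for 48 h. The remaining 6 libraries were MYC-vector cells in DMSO and control-vector cells in tipifarnib, at the same doses. They entered the statistical model and are quoted where they show how a net change was made up. All 4 groups were transduced populations selected with puromycin, grown in the same medium. Each line gave 1 culture per group, so the 3 lines stand as the replicates, and line and tipifarnib dose cannot be told apart for A549. With no repeat cultures, p-values describe the spread of these 12 libraries and no more.

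MYC is a transcription factor that binds DNA with its partner MAX, mostly at the sequence known as the E-box, and it is known for raising genes of ribosome production, nucleotide synthesis and cell growth. Tipifarnib blocks farnesyltransferase, the enzyme that attaches a farnesyl lipid to proteins such as lamin B, the RAS family and several centromere proteins. Where both act on the same gene, their effects can add or cancel, and a net change shows the balance.

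Gene-level read counts came to between 21164503 and 26962994 in the 6 libraries. Mitochondrial genes took 3.65 to 5.5% of them. Levels are given as CPM, the count of a gene scaled to library size with TMM factors, in the order A549, SKOV3 and MDA-MB-231. The A549 marker list summed to between 12018.9 and 16331.3 CPM in the 4 A549 libraries and to at most 770.4 CPM elsewhere. The SKOV3 list, which holds ERBB2, summed to 2492.2 CPM in MYC plus tipifarnib SKOV3 cells and 6834.1 CPM in control SKOV3 cells in DMSO, so that the first lay within the range of A549, 1408.7 to 3324.2 CPM. The MDA-MB-231 list, made of mesenchymal genes, did not set that line apart from SKOV3. Its sums lay between 3354.1 and 5203.3 CPM in MDA-MB-231 and between 2543.3 and 4371.0 CPM in SKOV3.

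MYC itself (ENSG00000136997.10) had 506.1, 610.1 and 1593.1 CPM in MYC plus tipifarnib cells, against 104.8, 48.4 and 147.6 CPM in control cells in DMSO. Every MYC plus tipifarnib library lay above every control library. The ratio was 4.83 in the A549 pair, 12.6 in the SKOV3 pair and 10.8 in the MDA-MB-231 pair. The fitted log2 fold change over the 3 pairs was 3.16 ± 0.35, with the SE taken from the fit over 12 libraries. Its adjusted p was 0.00538 in edgeR's quasi-likelihood test with Benjamini-Hochberg adjustment, which is the test behind every adjusted p below. Counts per gene do not separate vector transcripts from those of the cell's own gene. MYC also had 143.5, 99.7 and 348.9 CPM in control cells in tipifarnib, 1.37, 2.06 and 2.36 times the level of the same cells in DMSO. In MYC-vector cells in DMSO it had 911.8, 493.7 and 708.8 CPM. Among MYC-vector cells, the level was thus lower with tipifarnib in A549 and higher in SKOV3 and MDA-MB-231. The tipifarnib effect on MYC was 0.19 ± 0.32 (log2, SE) within MYC-vector cells. Over both vectors it was 0.55 ± 0.23 (log2, SE; adjusted p = 0.151 in edgeR's test). FNTA and FNTB encode the 2 subunits of farnesyltransferase, the target of tipifarnib. FNTA had 38.1, 49.9 and 35.7 CPM in MYC plus tipifarnib cells, against 34.2, 40.6 and 23.2 CPM in control cells in DMSO. FNTB had 9.64, 5.77 and 6.72 CPM, against 14.8, 10.1 and 7.4 CPM. FNTA was the higher of each pair and FNTB the lower, but neither net change passed edgeR's test (adjusted p = 0.186 and 0.152).

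Across the genome, 857 of 17096 genes tested changed between MYC plus tipifarnib and control in DMSO at an adjusted p under 0.05, which is 5.01% of them. Of these, 344 (2.01%) were higher and 513 (3.00%) lower, and the median net change over all genes was 0.01 on the log2 scale. Among the 344 genes that rose, 339 were higher in 3 of 3 pairs, and among the 513 that fell, 490 were lower in 3 of 3 pairs. The calls use these same pairs, so this describes them and adds no support. Of all genes tested, 20.5% were higher and 20.3% lower in 3 of 3 pairs. Where the groups of a gene are said not to overlap, this likewise describes its values and adds no support. Most named genes were picked from these same libraries, and the share of all genes without overlap was not counted. The counts rest on all 3 lines. Leaving out A549 left 251 genes called, leaving out SKOV3 1 and leaving out MDA-MB-231 11. The 6 libraries fitted alone called 0 of 14996 genes in edgeR's test with 2 residual degrees of freedom, where 2872 had an unadjusted p under 0.05.

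The 12 largest rises among expressed genes included both secreted factors and genes of very low level in 1 or 2 lines. GDF15, a secreted stress hormone, had 228.2, 76.1 and 139.2 CPM in MYC plus tipifarnib cells, against 20.8, 3.39 and 3.07 CPM in control cells in DMSO. Every MYC plus tipifarnib library lay above every control library. Its log2 fold change was 4.50 ± 0.64 (SE), with an adjusted p of 0.0112 in edgeR's test. S100P, a calcium-binding protein, had 279.7, 20.3 and 58.6 CPM, against 17.2, 0.260 and 0.960 CPM, and rose by 5.53 ± 1.36 (adjusted p = 0.047 in edgeR's test). RGS16, which shortens G protein signals, had 6.15, 5.64 and 10.5 CPM, against 0.440, 0.0434 and 1.10 CPM, with no overlap between the groups. The SKOV3 control library held 1 count of RGS16, so the size of its rise there is loosely set. NUPR1, a stress-induced chromatin protein, had 32.2, 236.9 and 17.1 CPM, against 13.2, 11.0 and 0.960 CPM. INHBE, which encodes the activin beta E subunit, had 6.43, 17.9 and 5.24 CPM, against 1.94, 0.477 and 0.720 CPM. NUPR1 and INHBE were both highest in SKOV3 cells with MYC plus tipifarnib, and no control library reached the MYC plus tipifarnib range of either gene.

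The other rises of this size had few counts in 1 or 2 lines. SCEL, a cornified envelope precursor of squamous epithelia, had 1965, 82 and 2 counts in MYC plus tipifarnib cells, against 60, 7 and 0 counts in control cells in DMSO. LCN2, an iron-binding protein of the NF-kB response, had 462, 893 and 4 counts, against 62, 60 and 0. TEX15, a germ cell gene, had 404, 6 and 1 counts, against 49, 1 and 0. In these 3 genes MDA-MB-231 added almost nothing. SUN3, a nuclear envelope protein, was the reverse, with 2, 3 and 630 counts in MYC plus tipifarnib cells, against 0, 0 and 26 in control cells in DMSO. TM4SF19 had 3, 196 and 185 counts, against 2, 6 and 18, so A549 showed no clear difference. SMOC1, a matricellular calcium-binding protein, had 2529, 85 and 4 counts, against 342, 5 and 1.

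The 12 largest falls included receptors, a scaffold and FN1. FN1 encodes fibronectin, a matrix glycoprotein, and had 16.1, 711.2 and 54.9 CPM in MYC plus tipifarnib cells, against 613.9, 3124.7 and 234.2 CPM in control cells in DMSO. FN1 was the lower of each pair, with the deepest fall in A549, and the groups overlapped, since both SKOV3 libraries were far higher. Its net change was -3.09 ± 0.59 (log2, SE; adjusted p = 0.0252 in edgeR's test), the sum of a MYC effect of -2.77 and a tipifarnib effect of -0.32. GFRA1, a receptor component for the growth factor GDNF, had 0.138, 0.850 and 0.0361 CPM, against 11.3, 67.4 and 0.240 CPM, and fell by 5.91 ± 0.97 (adjusted p = 0.0163 in edgeR's test), with 1 and 5 counts in the MDA-MB-231 pair. FGFR2, a fibroblast growth factor receptor, had 0.781, 1.12 and 0.0361 CPM, against 3.12, 12.9 and 0.528 CPM. AKAP5, a scaffold for protein kinase A, had 0.459, 2.46 and 0.614 CPM, against 4.66, 18.7 and 5.14 CPM. PDE7B, a cAMP phosphodiesterase, had 7.53, 1.07 and 0.108 CPM, against 14.5, 18.3 and 5.57 CPM. AKAP5 fell about equally in the 3 pairs and without overlap, while PDE7B fell most in MDA-MB-231 and least in A549. The remaining 7 of the 12 falls had most of their counts in 1 line. CDH6, a cadherin, had 20, 384 and 1 counts in MYC plus tipifarnib cells, against 76, 5828 and 2 counts in control cells in DMSO. RSPO3, a secreted enhancer of WNT signalling, had 83, 0 and 2 counts, against 1319, 5 and 2. CLDN2, a tight junction protein, had 71, 0 and 8 counts, against 1113, 16 and 23. NKAIN4, LRRC61, FNDC1 and ZBED10P had most of their counts in SKOV3, with 11, 68, 92 and 126 counts in MYC plus tipifarnib cells, against 204, 722, 972 and 2102 in control cells in DMSO.

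**Figure D1:**
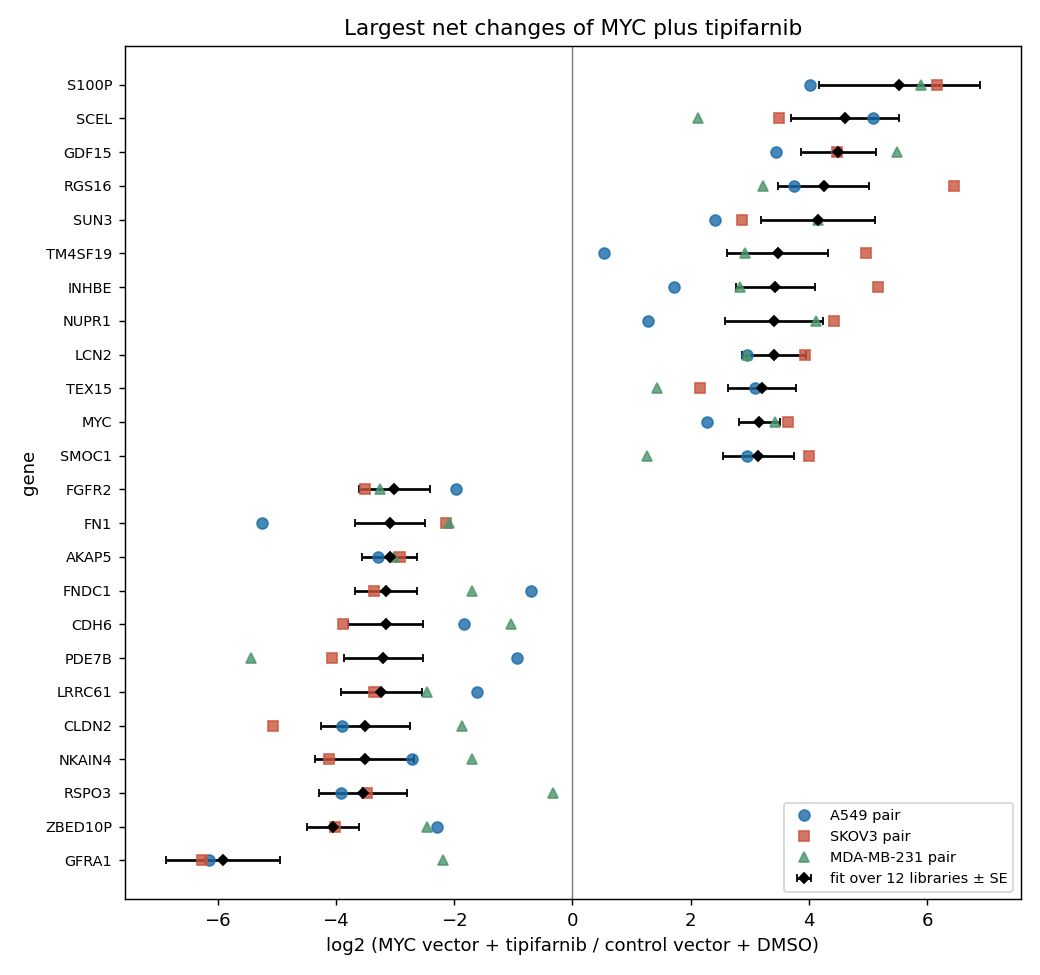
Net change of the 12 largest rises and 12 largest falls, on a log2 scale of MYC vector with tipifarnib over control vector with DMSO. Coloured points are the 3 line pairs and black diamonds the fit over 12 libraries with its SE; AKAP5 has its pairs close together, while FN1 has its A549 pair far below the others and PDE7B its A549 pair far above them, and a pair can lie outside the SE where a line has few counts.

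The plot of these genes shows how unequal the pairs were. In the low-count genes the fitted value follows the lines that express the gene, and the pair ratio of the other line carries little weight.

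How the net change was made up was read from the same fit. On the fitted log2 scale the net change equals the tipifarnib effect, averaged over both vectors, plus the MYC effect, averaged over both treatments. These values share libraries and are given side by side, with no test between them. Tipifarnib changed 1929 genes (11.3%), 796 higher (4.66%) and 1133 lower (6.63%), and MYC changed 1256 (7.35%), 770 higher (4.50%) and 486 lower (2.84%). The tipifarnib count was 978 with A549 left out, 1174 with SKOV3 left out and 87 with MDA-MB-231 left out, and the MYC count 10, 14 and 148. Where both effects passed edgeR's test, they pointed the same way in 41 genes, 17 with both higher and 24 with both lower, and opposite ways in 180 genes. Of the opposed genes, 64 were higher with tipifarnib and lower with MYC, and 116 were lower with tipifarnib and higher with MYC. The median absolute net change was 0.167 in the 64 genes and 0.0856 in the 116 genes, against 1.67 in the 17 genes and 1.43 in the 24 genes of the adding classes. Since the net change is the sum, its size and its calls in each class follow in part from the way the class was made. Of the 180 opposed genes, 1 was called in the net comparison, against 5.01% of all genes. It was NTN4, which encodes netrin 4 and is named after its value was seen, with a tipifarnib effect of 1.39, a MYC effect of -0.59 and a net change of 0.80 ± 0.19 (log2, SE; adjusted p = 0.0416 in edgeR's test).

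**Figure D2:**
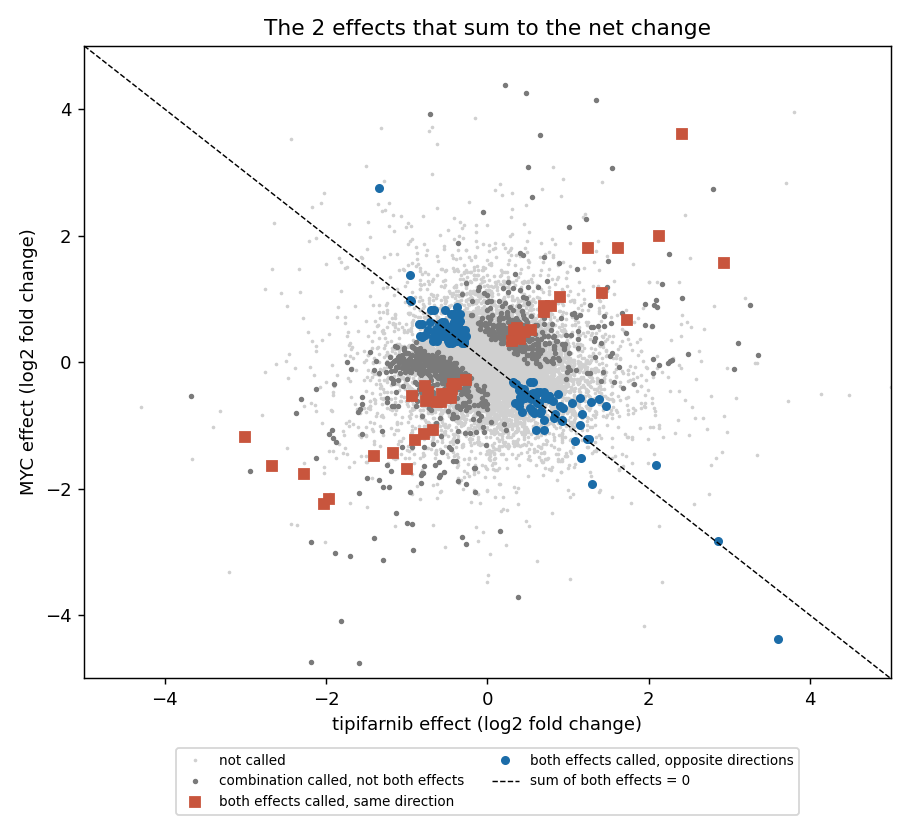
Tipifarnib effect (x axis) and MYC effect (y axis) of each gene tested, both as log2 fold changes from 12 libraries; 5 genes lie outside the axes. Genes along the dashed line have a net change of 0, and the 180 genes with opposite called effects (blue) sit close to it, while the 41 with the same direction (red) lie far from it.

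The plot of both effects shows the opposed genes in the upper left and lower right, near the line where the sum is 0. Genes called in the net comparison alone lie on either side of a broad band around that line.

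Genes on which both effects were higher included GDF15 and INHBE, given above. DMKN, a secreted epidermal protein, had 103.7, 9.26 and 14.3 CPM in MYC plus tipifarnib cells, against 13.2, 1.35 and 4.03 CPM in control cells in DMSO. Its net change of 2.51 ± 0.26 was the sum of a tipifarnib effect of 1.42 and a MYC effect of 1.09 (log2; adjusted p = 0.00479 for the net change in edgeR's test). ST6GAL1, the enzyme that adds alpha-2,6-linked sialic acid to glycoproteins, had 22.7, 51.0 and 71.9 CPM, against 7.79, 13.7 and 14.6 CPM. MYC plus tipifarnib libraries lay above all control libraries for ST6GAL1, with a net change of 1.93 ± 0.19 (adjusted p = 0.00479 in edgeR's test). GAS5 is a long noncoding RNA gene that hosts small nucleolar RNAs, and it had 231.2, 210.8 and 395.2 CPM, against 107.7, 45.1 and 132.2 CPM. For GAS5 the single treatments lay between, at 244.7, 117.8 and 184.4 CPM in MYC cells in DMSO and 223.2, 81.1 and 244.1 CPM in control cells in tipifarnib, except in A549, where MYC in DMSO was the highest of the 4. CCNB1IP1, a ubiquitin ligase, and MACROD1, an ADP-ribose hydrolase, rose by 1.59 and 1.48 on the log2 scale. MUC13, a membrane mucin, rose by 3.06 and had 1 and 0 counts in the MDA-MB-231 pair.

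All 24 genes on which both effects were lower also fell in the net comparison, where 3.00% of all genes fell. Of the 24, 20 were lower in 3 of 3 pairs, as were 20.3% of all genes. The net change is the sum of both effects, so both counts follow largely from how the class was made and add no support. COL8A1, a collagen of basement membranes, had 0, 8.28 and 6.93 CPM in MYC plus tipifarnib cells, against 0, 254.7 and 93.9 CPM in control cells in DMSO. It had 0 counts in both A549 libraries and was far lower with MYC plus tipifarnib in the other lines, with a net change of -4.31 ± 0.31 (adjusted p = 0.000887 in edgeR's test), a tipifarnib effect of -2.67 and a MYC effect of -1.64. MATN2, a matrix adaptor protein, had 11.9, 4.97 and 0.542 CPM, against 54.0, 36.8 and 5.33 CPM. OLFML2A had 25.3, 9.62 and 3.86 CPM, against 61.8, 57.5 and 15.1 CPM. INHBB, which encodes the activin beta B subunit, had 23.0, 0.134 and 10.6 CPM, against 75.2, 1.39 and 53.5 CPM. In these 3 genes the MYC plus tipifarnib library was the lower of every pair. INHBB thus fell where INHBE, another activin subunit, rose. PPP1R1B, a phosphatase inhibitor, had 2496 counts in MYC plus tipifarnib SKOV3 cells, against 24288 in control SKOV3 cells, and at most 3 counts in the other libraries of the comparison. CDH16 and GASK1B were likewise set by SKOV3, with 167 and 73 counts in MYC plus tipifarnib SKOV3 cells, against 3439 and 1112 counts in control SKOV3 cells.

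Among genes higher with tipifarnib and lower with MYC, net changes averaged over the lines were mostly small, with a median absolute value of 0.167. AHNAK2, a large scaffold protein, had 278.8, 441.6 and 191.8 CPM in MYC plus tipifarnib cells, against 353.3, 557.1 and 110.4 CPM in control cells in DMSO. Its levels with a single change stood far apart, at 79.9, 232.5 and 61.0 CPM in MYC cells in DMSO and 556.0, 1014.0 and 344.4 CPM in control cells in tipifarnib. The tipifarnib effect on AHNAK2 was 1.23 and the MYC effect -1.22, which left 0.01 ± 0.24 (log2, SE). PITPNM3, a phosphatidylinositol transfer protein, had 3.72, 61.7 and 13.0 CPM in MYC plus tipifarnib cells, against 6.82, 51.4 and 13.1 CPM. Integrin beta 4, encoded by ITGB4 and part of the receptor for laminin-332, had 221.8, 150.6 and 136.4 CPM, against 133.8, 252.9 and 136.3 CPM. The near-zero net change of ITGB4, 0.00 ± 0.33, thus joined a higher level in A549 with a lower one in SKOV3. CPA4, NMNAT2, AK5, FGFBP1 and ZNF469 had net changes between -0.62 and 0.45 that did not pass edgeR's test, with adjusted p between 0.442 and 0.967.

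In the opposite class, lower with tipifarnib and higher with MYC, edgeR's test called 0 of 116 genes in the net comparison. Of all genes it called 5.01%, and the low count follows in part from how the class was made. FKBP5, a co-chaperone of steroid receptors, had 56.8, 29.0 and 90.6 CPM in MYC plus tipifarnib cells, against 71.6, 17.3 and 105.5 CPM in control cells in DMSO. CD320, the receptor that takes up vitamin B12 bound to transcobalamin, had 66.3, 40.0 and 61.6 CPM, against 52.7, 28.8 and 76.1 CPM. ATP5MC1, a subunit of the mitochondrial ATP synthase, had 235.8, 105.3 and 93.8 CPM, against 220.4, 88.7 and 117.5 CPM. The groups overlapped in all 3 genes, and the net changes were 0.02 ± 0.29, 0.17 ± 0.15 and 0.01 ± 0.13 (log2, SE). AIF1L, HMGN5, GPRIN3 and ADGRL1 had net changes between -0.08 and 0.42. KRT4, a keratin of lining epithelia, was the exception in size, at 1.39 ± 0.45 with an adjusted p of 0.0958 in edgeR's test, and its counts were almost wholly in A549, where it had 75.0 CPM in MYC plus tipifarnib cells and 28.2 CPM in control cells in DMSO.

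**Figure D3:**
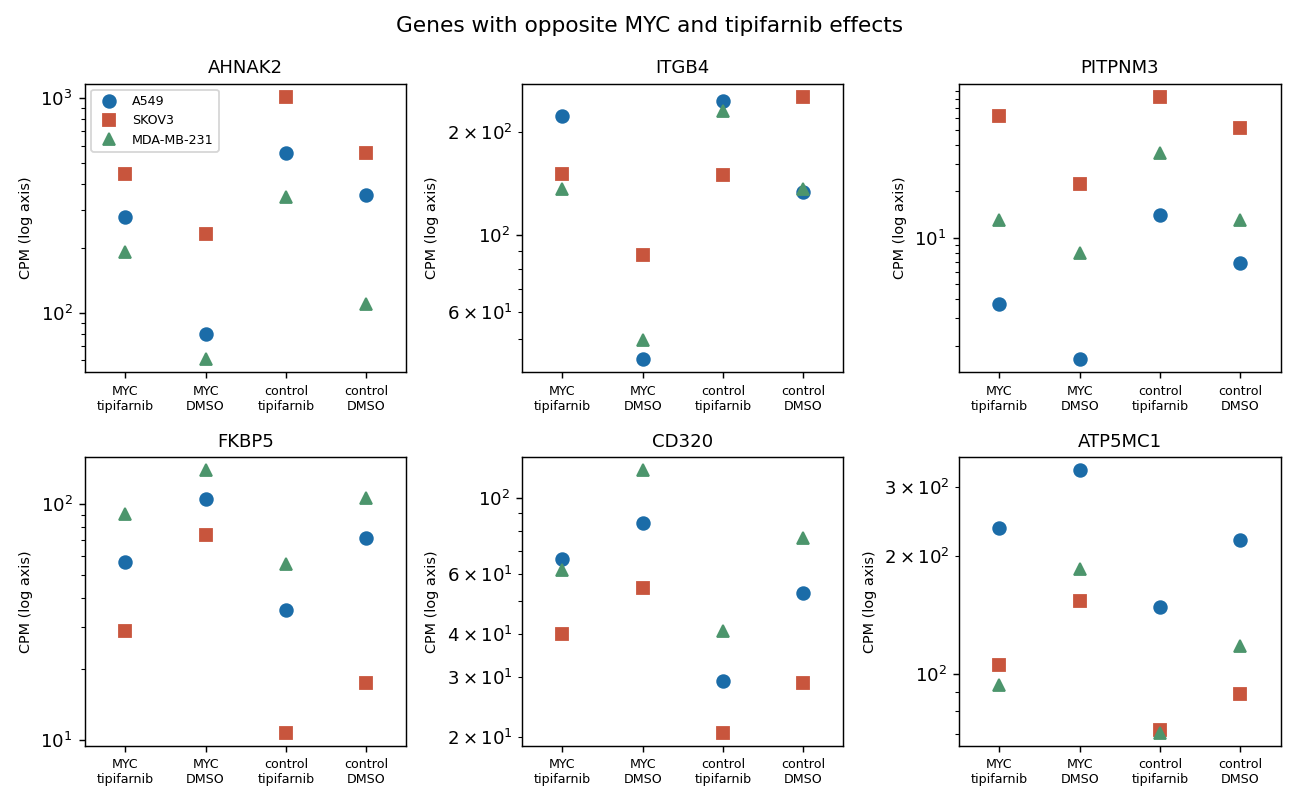
Level in CPM (log axis) of 6 genes with opposite called effects, in the 4 groups, with MYC vector in tipifarnib at the left and control vector in DMSO at the right. Each point is 1 library. AHNAK2, ITGB4 and PITPNM3 are lowest in MYC cells in DMSO, and FKBP5, CD320 and ATP5MC1 are highest there. In each gene the outer groups differ in direction between lines.

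The plot of opposed genes shows that the balance was not met by every line. AHNAK2 was 191.8 CPM in MYC plus tipifarnib MDA-MB-231 cells and 110.4 CPM in control cells in DMSO, the reverse of its order in A549 and SKOV3.

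Whether the effects only add was tested as the interaction of MYC and tipifarnib. In edgeR's test 0 genes passed, where 125 had an unadjusted p under 0.05. DESeq2 called 0 genes, with 118 under that unadjusted p, and limma-voom 0, with 185. With 3 lines, a missing call does not show that effects were additive. WNT7B, a WNT ligand, had the smallest p, with 109.1, 62.5 and 21.8 CPM in MYC plus tipifarnib cells, against 167.7, 121.4 and 42.2 CPM in control cells in DMSO. MYC cells in DMSO were lower still, at 43.0, 32.9 and 17.0 CPM. The net fall of WNT7B was -0.84 ± 0.20 (adjusted p = 0.0402 in edgeR's test) and its interaction 1.28 ± 0.28 (adjusted p of 1 in the same test). Next in p were ANPEP, CEP192-DT, SIGLEC15, FGFBP1 and DES, none of them called, the last of which had at most 188 counts in the 6 libraries.

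Genes of cell division gave the most uniform net fall. Of 40 mitosis genes, 32 fell and 0 rose, against 3.00 and 2.01% of all genes, and their median net change was -0.75, against 0.01 over all genes. Of 44 DNA replication genes, 27 fell and 0 rose, with a median of -0.82. The tipifarnib effect had medians of -0.82 and -0.85 in these lists and the MYC effect 0.04 and 0.09. MKI67, a marker of cycling cells, had 223.5, 172.6 and 357.9 CPM in MYC plus tipifarnib cells, against 494.0, 412.9 and 759.7 CPM in control cells in DMSO. TOP2A, the topoisomerase that untangles sister chromosomes, had 452.4, 243.0 and 327.0 CPM, against 1042.9, 701.2 and 920.2 CPM. KIF11, the motor that separates spindle poles, had 105.0, 42.5 and 127.6 CPM, against 229.2, 89.1 and 279.7 CPM. All 3 genes fell in every pair, and for MKI67 and TOP2A every MYC plus tipifarnib library was below every control library. Their net changes were -1.16 ± 0.13, -1.41 ± 0.17 and -1.11 ± 0.13, each with an adjusted p of 0.00553 in edgeR's test. TK1, a thymidine kinase of S phase, had 111.0, 58.5 and 63.5 CPM, against 239.9, 127.6 and 192.2 CPM. It was lower in every pair and without overlap between the groups. Both lists held negative net changes throughout, in 40 of 40 and 44 of 44 genes. In RNA from whole cultures, fewer dividing cells and less of these RNAs per cell cannot be told apart. Without A549, 10 mitosis and 6 replication genes fell, and without SKOV3 or without MDA-MB-231 0 of either list, with medians between -0.59 and -1.0 in each case.

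The promoters of these genes are printed for 3 that fell, because genes of late cell cycle are known to carry a pair of short elements near their starts. Capitals mark the letters TTTGAA or their complement TTCAAA, which lie within the element called CHR that the DREAM and MuvB complexes bind, and CCAAT or its complement ATTGG, which NF-Y binds. The windows were taken from RefSeq promoter sequences of GRCh38.p14 and run 5′ to 3′ toward the gene start. These 3 hold both sets of letters, which not every gene that fell does. SPC25, CENPF, TK1, GINS1 and RRM1 also fell, and their 80 bases with the most letters held CCAAT without TTTGAA.
MKI67 (chr10:128126442-128126521, minus strand): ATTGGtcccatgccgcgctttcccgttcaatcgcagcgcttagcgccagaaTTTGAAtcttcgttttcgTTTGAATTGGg
KIF11 (chr10:92593050-92593129, plus strand): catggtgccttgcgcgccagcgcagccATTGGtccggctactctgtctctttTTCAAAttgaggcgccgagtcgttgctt
TOP2A (chr17:40417977-40418056, minus strand): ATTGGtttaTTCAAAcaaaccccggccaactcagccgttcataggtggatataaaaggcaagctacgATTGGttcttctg

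Shares were counted in the 250 bases before the start, on both strands, over the 8655 genes tested that have 1 such window. TTTGAA was found in 35.7% of the 42 mitosis and replication genes that fell, in 19.8% of all 268 that fell and in 8.21% of all genes. CCAAT was found in 76.2% of the 42, in 54.1% of the 268 and in 35.7% of all genes. Among the 189 genes that rose, the shares were 7.41% for TTTGAA and 35.4% for CCAAT, close to those of all genes. The 2 sets of letters can share bases, as they do at the end of the MKI67 window. These are matches of letters, not binding sites.

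Genes of ribosome production had a net change between their opposed effects. Of 41 ribosome biogenesis genes, 5 rose and 0 fell, against 2.01 and 3.00% of all genes, with a median net change of 0.32. The MYC effect had a median of 0.54 there, with 26 genes higher, against 4.50% of all genes. The tipifarnib effect had a median of -0.26, with 8 genes lower, against 6.63% of all genes. LYAR, a nucleolar protein, had 63.7, 76.8 and 184.5 CPM in MYC plus tipifarnib cells, against 30.4, 28.8 and 114.2 CPM in control cells in DMSO. POLR1C, a subunit of RNA polymerases I and III, had 25.0, 27.8 and 23.9 CPM, against 15.3, 13.5 and 15.1 CPM. POLR1D, which has the same role, had 120.1, 95.4 and 103.6 CPM, against 67.1, 70.3 and 61.0 CPM. POLR1C and POLR1D did not overlap between the groups. NOB1, a nuclease of small subunit maturation, rose by 0.64, and POLR1B, a polymerase I subunit named after its value was seen, by 0.55. The count was 0 without any one of the 3 lines, and the median was 0.43 with A549 left out, 0.08 with SKOV3 left out and 0.49 with MDA-MB-231 left out. Of 77 cytosolic ribosomal protein genes, 4 rose, against 2.01% of all genes, and 0 fell, while 74 had a positive net change, with a median of 0.33. RPL36 had 553.2, 982.3 and 909.0 CPM, against 426.0, 553.9 and 667.5 CPM, and RPS19, RPL18 and RPS14 rose by 0.49, 0.44 and 0.46. Ribosomal protein genes have many near-identical pseudogenes, so their counts are uncertain. The count for this list was 34 with DESeq2, 17 with limma-voom, and 0 without any one of the lines. Both methods also called more of all genes higher, 1016 and 548, against 344 in edgeR's test.

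Nucleotide and polyamine synthesis was a divided list. Of 25 genes, 2 rose and 0 fell, against 2.01 and 3.00% of all genes. The median net change was 0.02 (0.28 with MDA-MB-231 left out), with a median tipifarnib effect of -0.32 and a median MYC effect of 0.39. ODC1, the rate-limiting enzyme of polyamine synthesis, had 419.6, 273.5 and 343.9 CPM in MYC plus tipifarnib cells, against 243.0, 87.9 and 243.3 CPM in control cells in DMSO. GART, an enzyme of purine synthesis, had 207.0, 185.9 and 283.6 CPM, against 151.7, 91.2 and 217.6 CPM. Both rose in every pair. TYMS, the thymidylate synthase of S phase, lay on the other side, at 23.7, 11.0 and 15.0 CPM, against 32.7, 31.1 and 51.8 CPM, with a net change of -1.20 ± 0.32 that did not pass edgeR's test (adjusted p = 0.0608).

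The E-box letters CACGTG, which read the same on both strands, are shown in capitals for LYAR and ODC1, from the same RefSeq build. LYAR and ODC1 are the called genes of these lists with the largest rises. Both hold the letters, which not every gene that rose does. POLR1D, GART and NOB1 also rose, and their windows with the most letters held CCAAT or TTTGAA without CACGTG.
LYAR (chr4:4290022-4290101, minus strand): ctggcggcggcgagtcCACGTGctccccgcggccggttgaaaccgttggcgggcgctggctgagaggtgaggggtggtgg
ODC1 (chr2:10448013-10448092, minus strand): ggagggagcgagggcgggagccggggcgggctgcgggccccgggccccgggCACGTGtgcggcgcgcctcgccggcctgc

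CACGTG was found in 14.3% of the 189 genes that rose, 7.84% of the 268 that fell and 8.67% of all 8655. It was found in 13.8% of 80 genes lower with tipifarnib and higher with MYC, and in 0 of 27 genes of the reverse class. Among the 42 mitosis and replication genes that fell, 23.8% held it.

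Stress genes were among those that rose. The integrated stress response is the pathway that runs through the transcription factor ATF4 when amino acids or protein folding fail. Of 34 of its genes, 9 rose and 0 fell, against 2.01 and 3.00% of all genes. Their median net change was 1.15, with 28 of 34 higher in 3 of 3 pairs, as were 20.5% of all genes. The tipifarnib and MYC effects had medians of 0.73 and 0.51. For tipifarnib 10 genes were called higher and for MYC 1, against 4.66 and 4.50% of all genes. ATF4 had 515.5, 792.9 and 714.4 CPM in MYC plus tipifarnib cells, against 322.3, 218.1 and 386.0 CPM in control cells in DMSO. DDIT4, an inhibitor of mTORC1, had 337.6, 237.8 and 235.1 CPM, against 96.7, 39.1 and 56.6 CPM. PCK2, the mitochondrial enzyme that makes phosphoenolpyruvate, had 127.5, 96.4 and 123.1 CPM, against 46.0, 6.42 and 34.0 CPM. No control library reached a MYC plus tipifarnib library in any of these 3 genes. The median pair ratio of the list (log2) was 0.71 for A549, 2.14 for SKOV3 and 0.88 for MDA-MB-231. The count was 9 without A549 and 0 without SKOV3 or without MDA-MB-231, and the median was 0.66 with SKOV3 left out. DESeq2 called 23 of the 34, and it called more genes throughout, with 1016 of all genes higher against 344 in edgeR's test.

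Some genes of the signalling lists rose as well. Of 26 genes of NF-kB and inflammation, 6 rose and 0 fell, against 2.01 and 3.00% of all genes, with a median net change of 1.42, a tipifarnib median of 1.10 and 1 gene with a called MYC effect. RELB, a subunit of NF-kB, had 29.4, 15.7 and 52.1 CPM in MYC plus tipifarnib cells, against 12.4, 5.86 and 9.75 CPM in control cells in DMSO. CXCL8, a neutrophil chemokine, had 7.21, 18.5 and 103.6 CPM, against 1.58, 2.39 and 9.27 CPM. NFKB2, the precursor of the p52 subunit, had 169.0, 26.6 and 204.0 CPM, against 58.5, 19.8 and 68.1 CPM, with the smallest difference in SKOV3. RELB was the one of these whose groups did not overlap. Of 30 immediate early genes, 8 rose and 1 fell, against the same shares of all genes. The gene that fell was FOSL2, named after its value was seen. The list had a median of 1.12, a tipifarnib median of 0.47 and a MYC median of 0.20. The phosphatases DUSP1 and DUSP5, which switch off MAP kinases, rose by 1.48 and 2.54. DUSP5 had 162.6, 84.2 and 303.0 CPM, against 18.9, 12.7 and 85.6 CPM, and DUSP1 had 214.5, 70.5 and 94.2 CPM, against 94.7, 18.3 and 40.7 CPM. The zinc finger factors KLF2 and KLF6 rose by 2.21 and 1.28. Without A549 4 NF-kB genes and 5 immediate early genes rose, and without SKOV3 or without MDA-MB-231 0 of either list. The NF-kB median was 0.92 with MDA-MB-231 left out.

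Of 26 p53 target genes, 5 rose and 0 fell, against 2.01 and 3.00% of all genes, with a median of 0.79 that was 0.21 with A549 left out. CDKN1A, the cell cycle inhibitor p21, had 330.4, 44.3 and 59.5 CPM in MYC plus tipifarnib cells, against 64.2, 5.95 and 33.4 CPM in control cells in DMSO. BBC3, the BH3 protein PUMA that starts apoptosis, had 54.3, 18.0 and 25.5 CPM, against 10.6, 2.78 and 5.67 CPM. BBC3 was higher in all MYC plus tipifarnib libraries than in any control library, with a net change of 2.40 ± 0.24 (adjusted p = 0.00479 in edgeR's test), and CDKN1A rose in every pair, though its groups overlapped. The other called genes were PLK3, a stress kinase, at 0.99, TNFRSF10B, a death receptor, at 0.88, and PHLDA3, named after its value was seen, at 1.06. The pair median was 1.07 for A549, 0.33 for SKOV3 and 0.31 for MDA-MB-231. Leaving out A549 left 1 called gene, SKOV3 0 and MDA-MB-231 1. Of 32 apoptosis genes, 3 rose and 1 fell, against 2.01 and 3.00% of all genes, with a median of 0.09. Leaving out A549 left 2 higher and 1 lower, SKOV3 0 in either direction, and MDA-MB-231 1 higher. Those that rose were BBC3, TNFRSF10B and TNFRSF10A, another death receptor, at 1.24. The gene that fell was BIRC5, survivin, which also belongs to the mitosis list, at 25.9, 15.0 and 20.3 CPM, against 54.0, 29.7 and 43.7 CPM.

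Of 29 cholesterol synthesis genes, 3 rose and 0 fell, against 2.01 and 3.00% of all genes. Their median was 0.83, and 24 of 29 were higher in 3 of 3 pairs, as were 20.5% of all genes. MSMO1, a sterol oxidase, had 81.5, 359.2 and 238.7 CPM in MYC plus tipifarnib cells, against 38.0, 111.0 and 55.0 CPM in control cells in DMSO. FDFT1, squalene synthase, which uses the farnesyl diphosphate that farnesyltransferase also uses, had 239.2, 632.5 and 190.9 CPM, against 132.5, 222.9 and 74.3 CPM. Both rose most in the lines given 20 µM, and SQLE, the squalene epoxidase, had a net change of 1.08 ± 0.27 that did not pass the threshold (adjusted p = 0.0512 in edgeR's test). The count was 7 without A549, 0 without either other line, and 12 with DESeq2, which called 1016 of all genes higher. Of 32 lysosome and autophagy genes, 4 rose and 0 fell, against 2.01 and 3.00% of all genes, with a median of 0.16. SQSTM1, the autophagy receptor p62, had 770.1, 740.8 and 670.9 CPM, against 432.2, 264.7 and 176.9 CPM, and the groups did not overlap. WIPI1, a protein of autophagosome formation, CTSL, a lysosomal protease, and NPC1, the lysosomal cholesterol exporter, rose by 1.11, 0.93 and 1.11. Without A549 3 of these list genes rose and without either other line 0.

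Of 26 mesenchymal and matrix genes, 6 fell and 0 rose, against 3.00 and 2.01% of all genes. Their median net change was -0.60, with a median MYC effect of -1.03 and a median tipifarnib effect of 0.01. THBS1, thrombospondin 1, had 56.1, 72.6 and 64.2 CPM in MYC plus tipifarnib cells, against 138.4, 996.6 and 342.8 CPM in control cells in DMSO. TGFBI, a matrix protein induced by TGF-beta, had 416.6, 122.4 and 11.8 CPM, against 1034.6, 467.6 and 55.8 CPM. CDH2, N-cadherin, had 28.0, 27.2 and 0.217 CPM, against 95.2, 61.8 and 0.384 CPM. All 3 were lower in every pair, and THBS1 did so without overlap between groups. CDH2 was near the floor in MDA-MB-231, at 0.217 and 0.384 CPM, so its ratio there is loosely set. Leaving out A549 left 4 called genes, SKOV3 0 and MDA-MB-231 1, and the median was -0.94 with SKOV3 left out. TGFBI and CAV1, the second named after its value was seen, were called lower and also belong to the MDA-MB-231 markers. In the interferon list of 38 genes, the median net change was -0.03, beside a median tipifarnib effect of 0.54 and a median MYC effect of -0.52. In this list 4 genes were called higher for tipifarnib and 7 lower for MYC, against 4.66 and 2.84% of all genes. The net median of the interferon list rested on SKOV3 and was 0.32 with SKOV3 left out, where 24 of 37 genes were positive.

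Of 29 genes of prenylation and farnesylated proteins, 4 fell and 0 rose, against 3.00 and 2.01% of all genes, with a median net change of 0.00. The 4 were LMNB1 and LMNB2, the B-type lamins, and CENPE and CENPF, centromere proteins, all of them substrates of farnesyltransferase, and CENPE and CENPF also belong to the mitosis list. LMNB1 had 101.0, 73.2 and 118.0 CPM in MYC plus tipifarnib cells, against 181.7, 174.2 and 222.7 CPM in control cells in DMSO. LMNB2 had 282.2, 353.1 and 462.6 CPM, against 408.1, 624.1 and 991.9 CPM. Both were lower in every pair. None of the 4 had a called MYC effect, which lay between -0.12 and 0.09. Among partners of MYC, MAX rose by 0.57 and MXD1, a repressor that competes for MAX, by 1.71. MXD1 had 7.94, 23.3 and 47.4 CPM, against 4.14, 3.69 and 19.4 CPM. In glycolysis 2 of 22 genes fell, against 3.00% of all genes, PKM by 0.73 and LDHA by 0.78, and in the ER chaperone list of 22 CALR and PDIA4 fell while HERPUD1 and DNAJB9 rose, against the same shares of all genes. Of 24 NRF2 targets, 3 were called higher with A549 left out and 0 without either other line. With all 3 lines, 0 were called in edgeR's test, 2 higher with DESeq2, and 1 higher and 2 lower with limma-voom. TXNRD1, thioredoxin reductase, was the nearest, at 4164.8, 1370.5 and 2336.8 CPM, against 2258.8, 596.5 and 693.5 CPM, with a net change of 1.29 ± 0.36 and an adjusted p of 0.0674 in edgeR's test. Without any one of the 3 lines, at most 1 gene was called in each direction in the prenylation, MYC-MAX, glycolysis, ER chaperone and nucleotide lists.

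**Figure D4:**
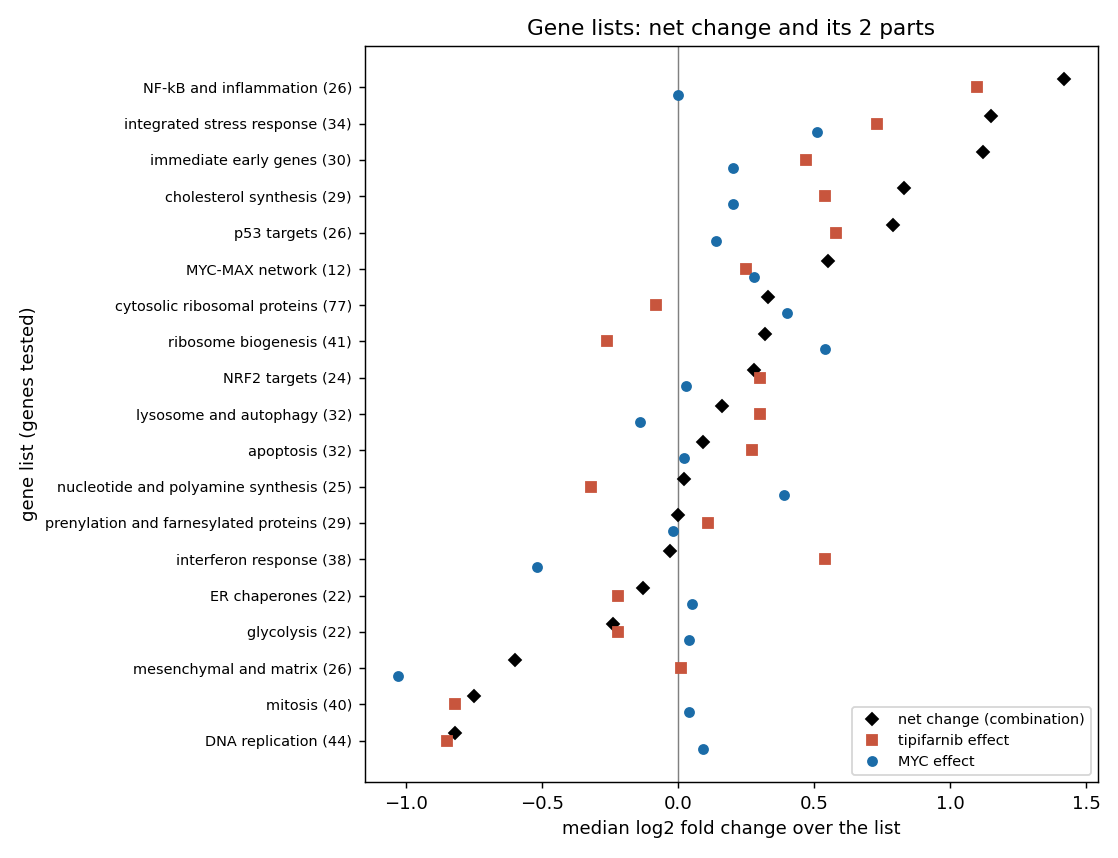
Median log2 fold change over the genes of 19 lists, for the net change and for the tipifarnib and MYC effects that sum to it gene by gene; the number of genes tested is in brackets. DNA replication and mitosis lie at the left with their tipifarnib medians, mesenchymal and matrix genes with their MYC median, and the interferon and nucleotide lists have median effects of opposite sign and a net median near 0, which was 0.32 for interferon with SKOV3 left out and 0.28 for nucleotides with MDA-MB-231 left out.

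The plot of list medians shows 3 kinds of net change. The integrated stress response has both medians above 0, though 1 of its genes had a called MYC effect. Mitosis and replication have a net median close to that of tipifarnib. The interferon list has tipifarnib and MYC medians of opposite sign, and its net median was 0.32 with SKOV3 left out.

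The net change was not the same in every line. An F test in edgeR of whether the sum of both effects was equal in the 3 lines passed in 617 of 17096 genes (3.61%), and A549 received another dose. A549 had the largest absolute pair ratio in 187 of these genes, SKOV3 in 250 and MDA-MB-231 in 180. Of the 617, 21 were also called for the net change. EDIL3, a secreted integrin ligand, had 19.8, 16.6 and 126.6 CPM in MYC plus tipifarnib cells, against 0.484, 58.0 and 163.4 CPM in control cells in DMSO. COL12A1, a fibril-associated collagen, had 61.1, 119.9 and 21.7 CPM, against 11.1, 570.9 and 32.7 CPM. TMTC1 had 47.2, 8.86 and 1.37 CPM, against 0.132, 16.7 and 0.912 CPM. All 3 were higher in A549 and lower in SKOV3 with MYC plus tipifarnib, as were PLAC8 and DAAM2. MIEN1 differed, at 31.5, 251.9 and 22.6 CPM, against 23.6, 1351.3 and 12.5 CPM, lower in SKOV3 alone. MIEN1 neighbours ERBB2 in the amplified region of SKOV3. The count of genes that differed between lines was 209 with SKOV3 left out, 160 with MDA-MB-231 left out and 710 with A549 left out, where both lines left had the same dose.

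**Figure D5:**
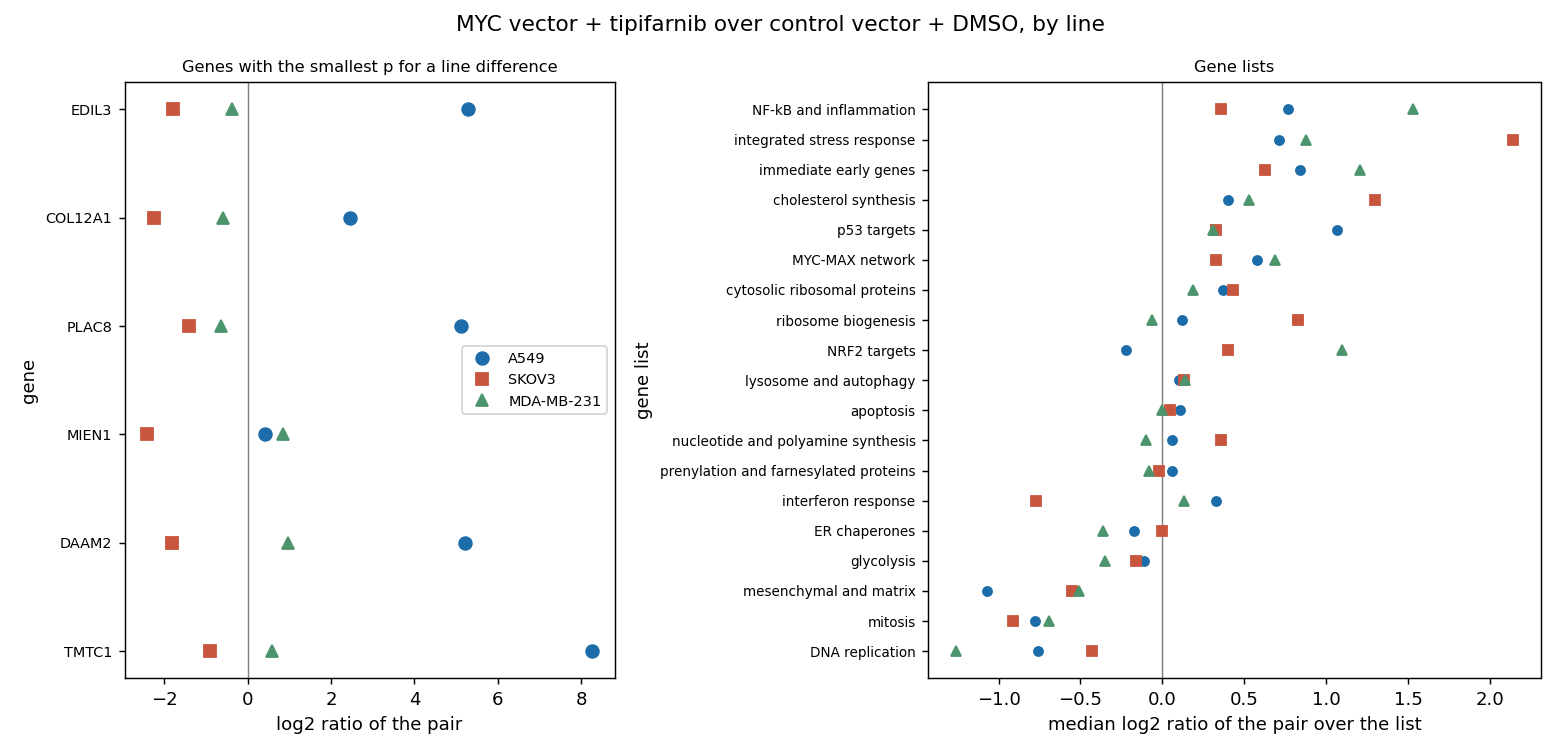
Log2 ratio of MYC vector with tipifarnib over control vector with DMSO in each of the 3 line pairs, for the 6 genes with the smallest p for a line difference (left) and as the median over each of 19 gene lists (right). A549 stands to the right for 5 of the 6 genes, and SKOV3 stands apart in the integrated stress response list, at 2.14.

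The plot by line shows that mitosis medians lay close together, at -0.78, -0.91 and -0.69, while those of DNA replication were -0.76, -0.43 and -1.26. The interferon list had pair medians of 0.33, -0.77 and 0.13, and the NRF2 list -0.22, 0.40 and 1.10. HMOX1, the heme oxygenase of the NRF2 list, had 50.4, 364.9 and 128.9 CPM in MYC plus tipifarnib cells, against 104.8, 23.6 and 11.7 CPM in control cells in DMSO, lower in A549 and higher in the others (adjusted p = 0.000783 for the line difference in edgeR's test).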

How the data were processed

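RNA was sequenced from 12 cultures, 1 per cell line and group. The values are raw counts, as deposited, which the authors made with TopHat2 and HTSeq on hg19, per the submitters' processing notes, which also name DESeq2; versions, annotation and strand settings are not given in the sources used here. Of its 57820 gene rows, 33136 had a count. The 5 HTSeq summary rows, which took 17.49 to 19.9% of each library's total, stayed out of library sizes and tests. Depth over all libraries was 20481363 to 26962994 counts.

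The counts were fitted with edgeR 4.0.16 in R 4.3.3 (TMM scaling, filterByExpr with a minimum count of 10, quasi-likelihood F tests, terms for cell line and 4 groups, 6 residual degrees of freedom), with Benjamini-Hochberg adjustment over 17096 genes and a threshold of 0.05. The SE is the absolute log2 fold change divided by the square root of F. The fit uses all 12 libraries so that 4 groups share 1 estimate of spread. The tipifarnib effect is the mean of both tipifarnib groups minus both DMSO groups, and the MYC effect the mean of both MYC groups minus both control groups. The line difference used a model with a MYC and a tipifarnib effect for each line (3 residual degrees of freedom). Pair ratios are log2 CPM differences with a prior count of 0.5. Pairing comes from the labels, which give 1 cell line per number: deviations from group means correlated at 0.838 to 0.867 between same-line libraries of the 6 (3 pairs). DESeq2 1.42.0 and limma 3.58.1 were alternatives. Scripts were checked on simulated counts.

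Genes are named by rule: MYC, FNTA and FNTB, the 12 largest rises and 12 largest falls called with a mean log2 CPM of at least 1 and 1 direction in 3 of 3 pairs, the 8 genes with the largest smaller effect in each of 4 classes of called tipifarnib and MYC effects, the 6 smallest p for the interaction and for the line difference, and up to 4 genes per list by p. The comparison and the 19 gene lists were chosen with earlier results of these data known. Gene symbols were matched for 51996 identifiers. Promoter sequences are from RefSeq, GRCh38.p14, found for 12020 of the genes tested. Results for some genes of the lists are not reported here.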

Additional observations from a re-analysis of the deposited data

Results flagged for a closer look

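In 617 genes the sum of the MYC and tipifarnib effects differed between the 3 lines in edgeR's quasi-likelihood F test at a Benjamini-Hochberg adjusted p under 0.05, and these include 14 genes of the naming rule. Line and dose cannot be told apart where A549 is set against the others. Of the genes with the largest net changes, FN1 (adjusted p = 0.00114 in edgeR's test), PDE7B (0.0144) and S100P (0.0396) moved in the same direction in the 3 pairs but by different amounts. EDIL3 and COL12A1 (each 0.000115 in edgeR's test) and PLAC8, DAAM2 and TMTC1 (each 0.000683) were higher with MYC plus tipifarnib in A549 and lower in SKOV3. MIEN1 (0.000683 in edgeR's test) was lower in SKOV3. HMOX1 (0.000783 in edgeR's test) was lower in A549 and higher in the other lines. NFKB2 (0.0297), NPC1 (0.0118), THBS1 (0.0237) and TNFRSF10A (0.0211 in edgeR's test) moved the same way in every pair with unequal size. THBS1 had its deepest fall in SKOV3, and NPC1 its smallest difference in A549, at 62.7 CPM in MYC plus tipifarnib cells and 57.7 CPM in control cells in DMSO.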

How the results depend on the processing

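With DESeq2 size factors in place of TMM every count kept its size within 1.5 times, and the interaction called 0 genes under each alternative that tests it. Larger counts came from DESeq2, with 1016 genes higher and 1168 lower in the net comparison, 3032 for tipifarnib, 2405 for MYC, 1347 for the line difference, and 142 same-direction and 446 opposed genes. The additive model gave 612 higher, 788 lower, 73 same-direction and 275 opposed genes. Limma-voom gave 548 higher and 70 same-direction genes. No filter on low counts gave 639 higher, 2302 for the line difference and 93 same-direction genes. The fit of 6 libraries alone called 0 higher and 0 lower. Without the pairing by line (no replicate block), 0 genes were called for the net change, tipifarnib, MYC and both classes, with 563 at an unadjusted p under 0.05 for the net change. Leaving out 1 line at a time gave 1 to 106 genes higher, 0 to 145 lower, 87 to 1174 for tipifarnib, 10 to 148 for MYC, 160 to 710 for the line difference, 1 to 5 same-direction and 1 to 4 opposed genes, with 3 residual degrees of freedom left. Of 95 named genes called for the net change, 94 were called with DESeq2 size factors, 93 with DESeq2, limma-voom or no filter, 92 in the additive model, 52 of 93 without A549, 1 of 90 without SKOV3 and 5 of 94 without MDA-MB-231, and 0 changed sign among those called. The causes were not tested. Depth limits the genes with under 10 counts in a line, whose pair ratios are loosely set.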

Other observations

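Genes of the ERBB2 region were looked at after their values were seen. ERBB2, the receptor amplified in SKOV3, had 1170 CPM in MYC plus tipifarnib SKOV3 cells and 5750 CPM in control SKOV3 cells in DMSO, with 2580 CPM in MYC cells in DMSO and 2830 CPM in control cells in tipifarnib. In A549 it had 115 CPM in MYC plus tipifarnib cells and 124 CPM in control cells in DMSO, and in MDA-MB-231 56.0 and 65.6 CPM. Its net change of -0.88 ± 0.35 did not pass edgeR's test (adjusted p = 0.165). GRB7, which lies beside ERBB2, had log2 pair ratios of 0.25 (A549), -2.75 (SKOV3) and 0.99 (MDA-MB-231), and STARD3, from the same region, -0.17, -0.62 and 0.06. In the SKOV3 pair all 3 were lower with MYC plus tipifarnib, and the difference between lines had an adjusted p of 0.00375 for ERBB2, 0.0182 for GRB7 and 0.188 for STARD3 in edgeR's F test.

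In 78 genes the net change was called although neither of its parts was, 36 of them higher and 42 lower. These are genes whose tipifarnib and MYC effects point the same way and miss the threshold singly.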
